A study of Mus musculus with 32 samples.

Results

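The genes described here are 10 neutrophil granule genes, chosen by name from the 27179 genes counted in mouse bone marrow cells with and without Kat7, the gene of the histone acetyltransferase HBO1. Elane, Prtn3, Ctsg and Mpo encode the main enzymes of the primary granules: neutrophil elastase, proteinase 3, cathepsin G and myeloperoxidase. Ltf, Camp and Ngp encode lactoferrin, the cathelicidin precursor and neutrophilic granule protein, which are packed into the secondary granules. S100a8 and S100a9 encode the calgranulins, a pair of calcium-binding proteins that fill the cytosol of neutrophils. Ms4a3 encodes a membrane protein that marks the granulocyte-monocyte progenitor. All 10 genes were counted in each of the 32 libraries, with a lowest count of 71 (Camp), and all 10 passed the filter on low counts in every fit.

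Neutrophils build their granules in waves. Primary granule genes are switched on early, in granulocyte-monocyte progenitors and promyelocytes, under factors such as PU.1, C/EBP alpha, RUNX1 and MYB. Secondary granule genes follow later, in myelocytes, and depend on C/EBP epsilon. Primary and secondary granule transcripts in a sorted population therefore mark different steps of the same path. Stem and early progenitor cells are known to carry low levels of the primary granule transcripts, Mpo above all.

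RNA of 2 sorted populations was sequenced from each of 16 adult C57BL/6 mice: progenitor cells, whose gate the labels do not describe, and LSK cells, the stem cell fraction that carries Sca-1 and Kit and lacks lineage markers. Per the titles, knockout mice were Hbo1fl/fl and controls Hbo1fl/+, so that the controls had lost 1 allele, although the protocol text describes these mice as wild type. In the Mx1Cre mice deletion followed polyIC, which drives the interferon-responsive Mx1-Cre, and in the CreER mice it followed tamoxifen, which activates Cre expressed from the Rosa locus. Controls carried the same Cre as their knockouts. Mx1-Cre answers to interferon in many cell types, and the Rosa locus is active in nearly all, so neither deletion was limited to blood cells. Each of the 8 groups (progenitor or LSK, Mx1Cre or CreER, knockout or control) held 4 libraries from 4 mice, 2 males and 2 females with Mx1Cre and 1 male and 3 females with CreER.

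On mm10 the members lie on 6 chromosomes. Prtn3 (Entrez 19152, 79879667 to 79883174) and Elane (Entrez 50701, 79886312 to 79888216) are neighbours on the plus strand of chromosome 10. Ltf (Entrez 17002, 111019292 to 111042766), Ngp (Entrez 18054, 110419808 to 110423012) and Camp (Entrez 12796, 109847377 to 109849456) all lie on chromosome 9, and Camp is on the minus strand. S100a8 (Entrez 20201, 90669071 to 90670034) and S100a9 (Entrez 20202, 90692630 to 90695721) lie on chromosome 3. The others are Mpo (Entrez 17523, chromosome 11, 87793784 to 87804412), Ctsg (Entrez 13035, chromosome 14, 56099885 to 56102574) and Ms4a3 (Entrez 170813, chromosome 19, 11629499 to 11640851). Each value is a sum over the exons of the gene. Prtn3 overlaps Plppr3 on the opposite strand and Mpo overlaps the antisense gene Gm11505, and the strand setting of the counting is not given in the sources used here, so reads of these pairs cannot be told apart.

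The promoters of a neighbouring pair of primary genes and of the 3 secondary genes are shown. They were chosen because within groups these genes correlated less across the primary and secondary classes than inside each class, as described after the levels. Each line gives the 150 bases before the RefSeq transcription start (GRCm38.p6, the strand of the gene), and capitals mark matches on either strand to TTGCNNAA, a C/EBP core, or GAGGAA, a PU.1 core.
Elane (chr10:79886162-79886311, plus strand): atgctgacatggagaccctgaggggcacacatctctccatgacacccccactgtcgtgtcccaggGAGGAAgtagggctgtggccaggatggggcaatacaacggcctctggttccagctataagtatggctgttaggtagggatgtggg
Prtn3 (chr10:79879517-79879666, plus strand): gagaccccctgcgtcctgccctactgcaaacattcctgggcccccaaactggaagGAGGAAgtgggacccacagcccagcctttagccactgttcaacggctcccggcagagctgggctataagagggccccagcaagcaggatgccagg
Ltf (chr9:111019142-111019291, plus strand): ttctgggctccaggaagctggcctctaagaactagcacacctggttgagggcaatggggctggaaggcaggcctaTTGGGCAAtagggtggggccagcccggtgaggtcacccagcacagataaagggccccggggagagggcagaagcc
Ngp (chr9:110419658-110419807, plus strand): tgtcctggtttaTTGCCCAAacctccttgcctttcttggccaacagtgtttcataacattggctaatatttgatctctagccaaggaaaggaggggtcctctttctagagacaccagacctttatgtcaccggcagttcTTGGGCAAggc
Camp (chr9:109849457-109849606, minus strand): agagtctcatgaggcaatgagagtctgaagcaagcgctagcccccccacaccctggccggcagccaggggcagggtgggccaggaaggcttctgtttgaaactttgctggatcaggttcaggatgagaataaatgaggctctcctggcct
Elane and Prtn3 each held 1 PU.1 core and no C/EBP core in this window, as did S100a8. Ltf held 1 C/EBP core and Ngp held 2, while Camp held neither motif. No match to either motif was found in the windows of Mpo, Ctsg, Ms4a3 and S100a9. TTGCNNAA was present in 5.5% of 27025 promoters of the same length and GAGGAA in 14.4%. Among other cores searched, TGTGGT (RUNX, in 8.5% of promoters) occurred in Ctsg and S100a9, and AACNG (MYB, in 55.1%) in 6 of the 10. Both strands were searched for every motif, and matches to different motifs were allowed to share bases. A match describes the letters only.

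Kat7 was lost as labelled. Knockout libraries averaged 1.45 ± 0.169 CPM (counts relative to the scaled library total, mean ± SD, n = 4) against 61.5 ± 14.9 CPM in controls among Mx1Cre progenitors, and 0.455 ± 0.433 CPM against 71.5 ± 4.69 CPM among CreER progenitors. In LSK cells the averages were 1.35 ± 0.303 CPM in knockouts against 71.2 ± 4.58 CPM in controls with Mx1Cre, and 0.852 ± 0.289 CPM against 67.4 ± 9.52 CPM with CreER. Total counts ran from 7275277 to 18409271 per library, with a median of 12207444. Progenitor Mx1Cre knockout 4 and control 1 stood apart in how log2 CPM changed per doubling of gene length (-0.295 and -0.354, against -0.135 to 0.121 in the other 30) and had the fewest genes with a count (14855 and 14892). This slope was also negative in LSK Mx1Cre knockouts 1, 3 and 4 (-0.0839, -0.124 and -0.135). Knockout 2 had 0.0215 and their controls 0.025 to 0.0581. Knockouts 1, 3 and 4 had 15752, 15991 and 15665 genes with a count. Knockout 2 had 16750 and the controls 16493 to 16765. Beyond a fit with the length trend removed, the part of this in the granule gene changes was not tested. The 8 stem cell and sort markers examined (among them Kit, Ly6a and Cd34) were lower in progenitor than in LSK controls as an average over both Cre lines. Slamf1 was lower only with Mx1Cre (mean 0.28 CPM against 4.39 CPM). With CreER it had 11.11 CPM in progenitor and 9.37 CPM in LSK controls. Sex-linked genes went against the labels in 2 libraries. LSK CreER knockout 2, labelled female, had 3460 counts of Ddx3y, Kdm5d and Eif2s3y and 13 of Xist, and LSK CreER knockout 3, labelled male, had 2 and 40875. Both belong to the same group, so exchanging them changes no group mean, but results that rest on them are also given without them.

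In control mice all 10 granule genes were higher in progenitor than in LSK cells. The background was 17.3% of 14459 genes called higher by edgeR's quasi-likelihood test at an adjusted p (Benjamini-Hochberg) under 0.05. The primary genes were higher by a log2 fold change of 0.92 ± 0.17 (SE) for Mpo (adjusted p = 8.37e-05) to 1.65 ± 0.25 for Elane (8.83e-06). Ms4a3 was higher by 1.27 ± 0.20 (1.57e-05). The other 5 differed by more on the log2 scale, with larger errors: 2.27 ± 0.47 for S100a8 (0.000393), 1.87 ± 0.55 for S100a9 (0.00932), and 1.82 to 1.85 with SE of 0.58 for Ltf, Camp and Ngp (0.0141 to 0.0155). The median over all genes tested was 0.03. Without progenitor Mx1Cre control 4, the library richest in secondary transcripts among the controls, S100a9, Ltf, Camp and Ngp stayed higher by 1.23 to 1.30 and missed the threshold (adjusted p = 0.051 to 0.0783), while the other 6 kept their call. By limma-voom Ltf, Camp and Ngp also missed it (0.0611 to 0.105). These fits took each library as independent, although both populations came from the same mice. With the mouse as a block all 10 kept their call. Elane was then higher by 1.67 ± 0.17 and Mpo by 0.92 ± 0.10, and Ltf, Camp and Ngp by 1.53 to 1.57 (adjusted p = 0.0135 to 0.0217). These are bulk libraries, in which fewer cells of a type and less RNA per cell cannot be told apart.

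Divided by exon length, so that genes can be compared with each other, Mpo was the most abundant granule transcript in every control group. In progenitor Mx1Cre controls it reached 8137 ± 1038 CPM per kb (SD, n = 4), followed by Elane at 6548 ± 1140 and Prtn3 at 6399 ± 1373, a pair that did not differ beyond its spread. S100a9 (4101 ± 4641) and S100a8 (2661 ± 2756) came next with spreads as large as their means, then Ctsg (2561 ± 512). Ngp (738 ± 871), Ms4a3 (701 ± 178), Camp (562 ± 594) and Ltf (290 ± 335) were lowest and overlapped. LSK CreER controls had the lowest levels. There Mpo had 1993 ± 696 CPM per kb, Prtn3 922 ± 361, Ctsg 644 ± 207, Elane 572 ± 285 and Ms4a3 124 ± 54.1, and the calgranulin and secondary genes had between 8.54 ± 2.28 (Ltf) and 95.5 ± 28.8 (S100a9).

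**Figure D1:**
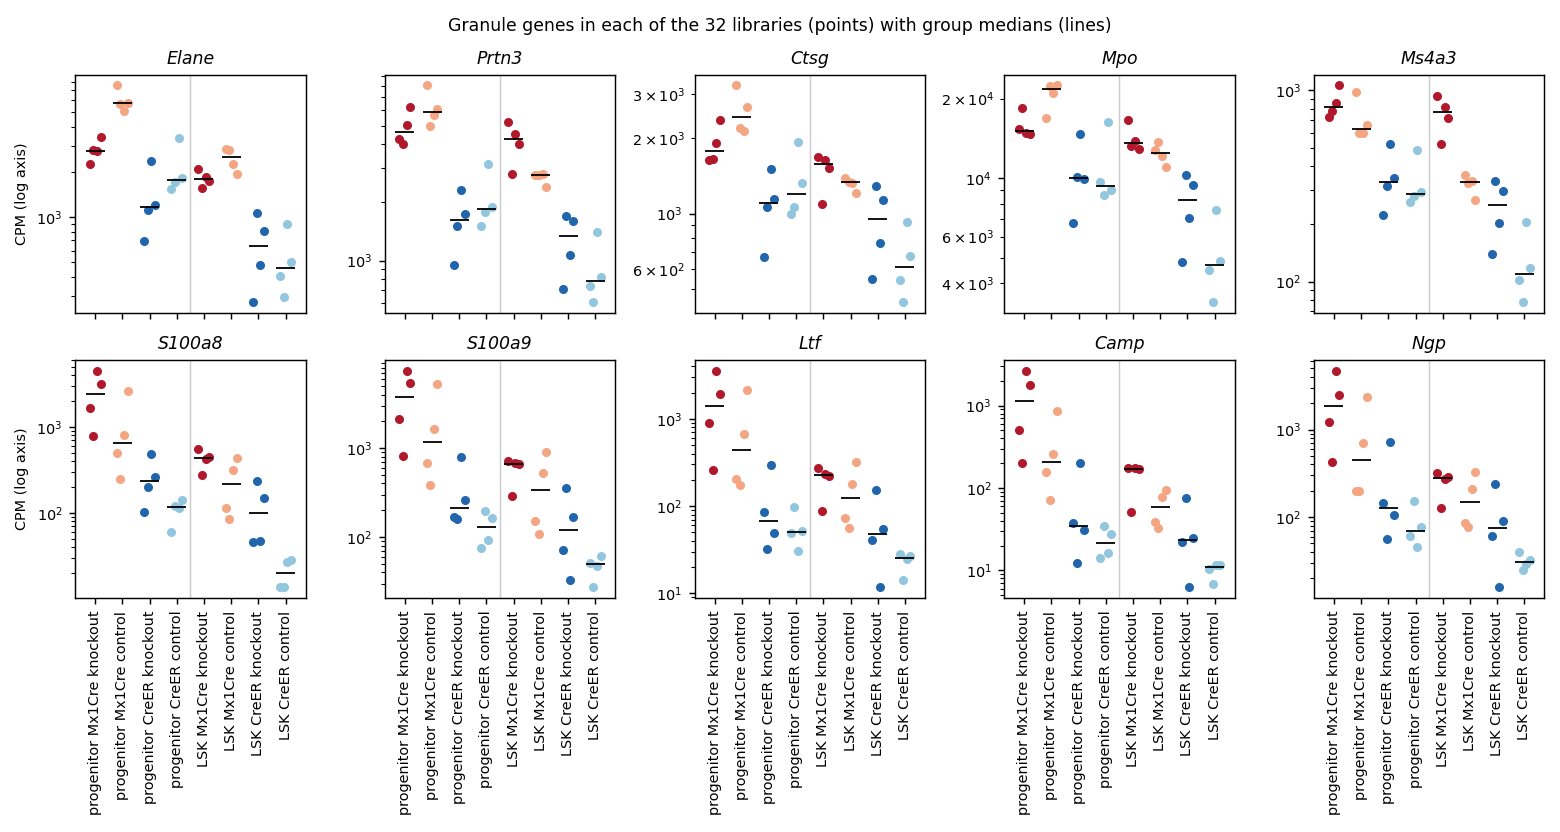
Each panel plots 1 granule gene in CPM on a log axis, with 1 point for each of the 32 libraries, the 8 groups along the bottom and a line at each group median. In the Mx1Cre progenitor groups the highest and lowest libraries differ 1.26 to 1.63 times for the primary genes and 10.9 to 13.8 times for Ltf, Camp and Ngp, whereas in LSK CreER controls the primary genes spread more (2.08 to 3.03 times) than these 3 (1.58 to 1.98 times).

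The Mx1Cre and CreER lines differed even without loss of the second allele. All 10 genes were called higher in Mx1Cre than in CreER controls in both populations. The background called higher was 14.3% of 13692 genes in progenitors and 11.7% of 14102 in LSK cells. Elane had 7541, 5694, 5124 and 5738 CPM in progenitor Mx1Cre controls, against 1533, 1723, 3386 and 1817 CPM in progenitor CreER controls. That is a log2 fold change of 1.51 ± 0.32 (SE, adjusted p = 0.00298), and in LSK controls it was 2.24 ± 0.35 (0.000206). The other primary genes and Ms4a3 differed by 0.93 to 1.57 in progenitors and 1.04 to 1.60 in LSK cells.

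The calgranulin and secondary genes differed by more. Camp had 155, 71.4, 262 and 858 CPM in progenitor Mx1Cre controls, against 14.03, 34.8, 16.1 and 27.5 CPM in progenitor CreER controls, a log2 fold change of 3.87 ± 0.98 (adjusted p = 0.00915). S100a8 had 113, 85.6, 315 and 438 CPM in LSK Mx1Cre controls, against 13.8, 13.6, 26.4 and 28.6 CPM in LSK CreER controls, a log2 fold change of 3.54 ± 0.57 (0.000313). Over the 5 genes the log2 fold change was 3.25 to 3.93 in progenitors and 2.50 to 3.54 in LSK cells. Without progenitor Mx1Cre control 4 the progenitor values were 2.12 to 2.82, with Camp at 2.82 ± 0.90 (adjusted p = 0.0389). Ngp in progenitors missed the threshold without CreER control 1 or Mx1Cre control 4 (adjusted p = 0.0571 and 0.0928). Cre line, inducing treatment and mice differ together here and cannot be told apart. Markers of other cell types moved with this difference, in comparisons that called 14.3% (progenitor) and 11.7% (LSK) of all genes higher. Of 8 monocyte markers, 7 were higher in Mx1Cre controls in both populations, with summed levels of 3200 to 4121 CPM in Mx1Cre against 782 to 1733 CPM in CreER progenitors. Of 8 late neutrophil markers, 6 were higher in Mx1Cre progenitors, where they summed to 150 to 1261 CPM against 53.7 to 90.5 CPM in CreER, and 7 in Mx1Cre LSK cells, at 87.8 to 279 CPM against 43.5 to 63.8 CPM. The 6 eosinophil granule genes were all higher in LSK Mx1Cre controls, where they summed to 70.7 to 297 CPM against 5.89 to 49.3 CPM in CreER. Their part in the result was not tested.

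Several granule genes were higher in LSK cells without Kat7. Averaged over both Cre lines, 5 of the 10 were higher in knockouts and none was lower, beside a background of 13.5% of 14102 genes called higher and 14.3% called lower. The 10 had a median log2 fold change of 1.012, against 0.01 over all genes tested. Ms4a3, S100a8, Camp, Ngp and Prtn3 passed the test. Elane, Mpo, Ctsg, S100a9 and Ltf did not. With sex as a covariate S100a9 also passed (1.29 ± 0.46, adjusted p = 0.0459), and with LSK CreER knockouts 2 and 3 exchanged as well, so did both S100a9 (1.20 ± 0.33, 0.0127) and Ltf (0.94 ± 0.33, 0.0388).

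Ms4a3, the progenitor marker, had 935, 526, 820 and 713 CPM in LSK Mx1Cre knockouts, against 359, 327, 337 and 266 CPM in their controls. It had 140, 334, 203 and 297 CPM in LSK CreER knockouts, against 102, 78.3, 204 and 118 CPM in their controls. The Mx1Cre groups did not overlap, whereas CreER control 3 lay within the range of the CreER knockouts. The mean log2 fold change was 1.09 ± 0.19 (adjusted p = 0.000521), and the call held without any single library and without LSK CreER knockouts 2 and 3 (1.00 ± 0.21, 0.00327).

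S100a8 had 554, 275, 427 and 449 CPM in LSK Mx1Cre knockouts, against 113, 85.6, 315 and 438 CPM in their controls. It had 45.2, 237, 47.2 and 150 CPM in LSK CreER knockouts, against 13.8, 13.6, 26.4 and 28.6 CPM in their controls. Here the CreER groups were the ones that did not overlap. The mean log2 fold change was 1.69 ± 0.38 (adjusted p = 0.00302), and 1.53 ± 0.36 without LSK CreER knockouts 2 and 3 (0.00736). S100a9, its partner in the same protein complex, averaged 1.12 ± 0.44 (0.0692).

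Among the secondary genes, Camp had 174, 51.8, 175 and 170 CPM in LSK Mx1Cre knockouts, against 39.1, 32.5, 77.7 and 95.4 CPM in their controls. In LSK CreER knockouts it had 21.9, 76.2, 6.24 and 24.9 CPM, against 10.3, 6.79, 11.7 and 11.5 CPM in their controls. CreER knockout 3 lay below all CreER controls and the other 3 knockouts above all of them, and Mx1Cre knockout 2 lay within the range of its controls. The mean log2 fold change of Camp was 1.46 ± 0.38 (adjusted p = 0.00917), and it missed the threshold by limma-voom (0.0558). Ngp averaged 1.12 ± 0.40 (0.0457), and its call was lost without any 1 of 12 of the 16 libraries (adjusted p = 0.0597 to 0.177), the highest of these without CreER knockout 2. Without CreER knockouts 2 and 3 together Camp (1.21 ± 0.29, 0.00851) and Ngp (0.88 ± 0.30, 0.0449) kept their calls. Ltf averaged 0.94 ± 0.42 (0.105).

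Of the primary genes, Prtn3 had 5198, 2794, 4511 and 4000 CPM in LSK Mx1Cre knockouts, against 2775, 2764, 2810 and 2415 CPM in their controls. In LSK CreER knockouts it had 715, 1708, 1068 and 1611 CPM, against 742, 611, 1404 and 827 CPM in their controls. Both pairs of groups overlapped. The mean log2 fold change was 0.56 ± 0.19 (adjusted p = 0.0303), lost without any 1 of 9 libraries (0.0503 to 0.0774) and without CreER knockouts 2 and 3 (0.49 ± 0.20, 0.0917). Its neighbour Elane had 2100, 1568, 1843 and 1732 CPM in LSK Mx1Cre knockouts, against 2840, 2805, 2253 and 1953 CPM in their controls, and averaged a log2 fold change of -0.06 ± 0.24 over both lines (0.866). Mpo averaged 0.41 ± 0.16 (0.0553) and Ctsg 0.35 ± 0.17 (0.121).

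Taken 1 line at a time, fewer members passed. With CreER alone S100a8 was the 1 member called in LSK cells (log2 fold change 2.54 ± 0.56, adjusted p = 0.0194, background 1.57% called higher). That call was lost without CreER control 1 or 2 or CreER knockout 2 or 4 (0.054 to 0.0815), and without knockouts 2 and 3 together (2.24 ± 0.56, 0.124). With Mx1Cre alone Ms4a3 was the 1 member called (1.21 ± 0.27, 0.00321), beside a background of 15.2% called higher. No member differed in its LSK knockout effect between the lines, where 4.37% of genes were called in either direction. The nearest was S100a8, at -1.70 ± 0.74 for Mx1Cre minus CreER (unadjusted p = 0.0339, adjusted 0.17).

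**Figure D2:**
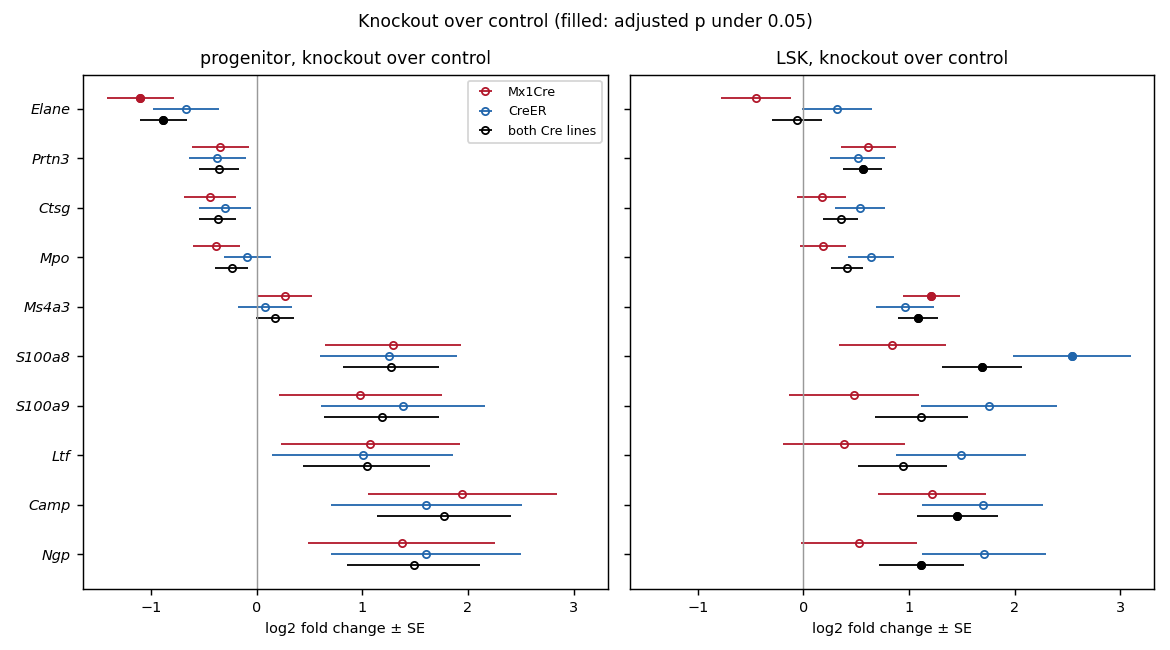
Log2 fold changes (knockout over control, points) with their SE (bars) for the 10 granule genes in progenitor cells (left) and LSK cells (right), by Mx1Cre, CreER and the mean of both lines. Filled points passed the test. In progenitors Elane, Prtn3, Ctsg and Mpo lie below 0, with the calgranulin and secondary genes above it and long bars, and in LSK cells all points lie above 0 except those of Elane for Mx1Cre and for both lines.

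In progenitor cells the called change was a fall of Elane. It had 2273, 2782, 2760 and 3407 CPM in progenitor Mx1Cre knockouts, against 7541, 5694, 5124 and 5738 CPM in their controls, with no overlap and a mean of 0.466 times that of controls. In progenitor CreER knockouts it had 694, 1111, 2370 and 1211 CPM, against 1533, 1723, 3386 and 1817 CPM in their controls, and these groups overlapped. The mean log2 fold change over both lines was -0.89 ± 0.22 (adjusted p = 0.0205), and the call held in all 24 alternatives computed, among them without Mx1Cre knockout 4 (-0.93 ± 0.23, 0.0225), without Mx1Cre control 1 (-0.81 ± 0.22, 0.0251) and with the length trend removed (-0.87 ± 0.21, 0.0104). It was the 1 member of 10 called, beside a background of 5.51% of 13692 genes called lower and 2.28% called higher. In Mx1Cre alone Elane was again the 1 member called (-1.10 ± 0.32, 0.0488, background 4.49% lower), a call lost without any 1 of 13 of the 16 libraries (0.0516 to 0.149). In CreER alone no member was called, where edgeR called 0.168% of genes in either direction. Of the 10, Elane had an unadjusted p under 0.05 there (-0.67 ± 0.31, 0.0481), and DESeq2 and limma-voom also called none.

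The other primary genes did not pass in progenitors. Mpo had 15379, 18514, 14876 and 14730 CPM in Mx1Cre knockouts, against 16870, 22437, 21090 and 22469 CPM in their controls, and its mean log2 fold change over both lines was -0.24 ± 0.16 (adjusted p = 0.458). Prtn3, beside Elane on chromosome 10, averaged -0.36 ± 0.19 (0.32) and Ctsg -0.37 ± 0.17 (0.246). Ms4a3 averaged 0.17 ± 0.18 (0.692).

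None of the calgranulin and secondary genes passed in progenitors, where their knockout and control libraries overlapped in both lines. Camp had 501, 201, 2666 and 1792 CPM in progenitor Mx1Cre knockouts, against 155, 71.4, 262 and 858 CPM in their controls. In progenitor CreER knockouts it had 37.9, 12.2, 201 and 30.6 CPM, against 14.03, 34.8, 16.1 and 27.5 CPM in their controls. The mean log2 fold change of Camp was 1.77 ± 0.64 (adjusted p = 0.112), with S100a8 at 1.27 ± 0.46 (0.115), Ngp at 1.49 ± 0.63 (0.19), S100a9 at 1.18 ± 0.55 (0.242) and Ltf at 1.04 ± 0.60 (0.377). Without progenitor Mx1Cre control 4 they reached 1.64 to 2.31, and S100a8, S100a9, Camp and Ngp passed (0.0135 to 0.0495). That library had the highest calgranulin and secondary sums of the controls, so leaving it out must raise these differences. No other library, when left out, gained any of these calls. With sex as a covariate S100a8 (1.24 ± 0.30, 0.0177) and Camp (1.33 ± 0.38, 0.0404) passed. No member differed in its progenitor knockout effect between the lines (background 0.299% in either direction; lowest unadjusted p 0.339, for Elane).

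The knockout effects on the primary genes and Ms4a3 were set against each other between the populations. Progenitor minus LSK, the difference in log2 fold change was -0.81 ± 0.34 for Elane, -0.64 ± 0.23 for Mpo, -0.91 ± 0.28 for Prtn3, -0.72 ± 0.25 for Ctsg and -0.90 ± 0.28 for Ms4a3. With each library taken as independent none passed (adjusted p = 0.0745 to 0.244, background 1.10% called lower). Progenitor and LSK libraries came from the same mice, and with the mouse as a block Mpo (-0.64 ± 0.14, 0.0128), Prtn3 (-0.90 ± 0.18, 0.00494), Ctsg (-0.70 ± 0.16, 0.0142) and Ms4a3 (-0.90 ± 0.19, 0.00886) passed, beside 2.75% of genes called lower. Elane then had an adjusted p of 0.0515, and 0.00175 with LSK CreER knockouts 2 and 3 exchanged between their mice. Without these libraries and without the block none passed. S100a8, S100a9, Ltf, Camp and Ngp gave differences of -0.42 to 0.38 with SE of 0.63 to 0.79 and did not pass in either fit.

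The proportion of primary to secondary transcripts was read within each library. Summed per kb of exon, Elane, Mpo, Prtn3 and Ctsg outweighed Ltf, Camp and Ngp 6.57, 20.1, 1.62 and 3.15 times in progenitor Mx1Cre knockouts, against 52.2, 63.2, 17.0 and 5.70 times in their controls. In progenitor CreER knockouts the ratio was 22.9, 96.7, 11.5 and 51.2, against 85.3, 36.1, 199 and 67.0 in their controls. In LSK Mx1Cre knockouts it was 23.7, 48.0, 22.4 and 20.4, against 74.4, 89.7, 30.4 and 18.1 in their controls. In LSK CreER knockouts it was 33.6, 21.1, 183 and 53.3, against 57.0, 71.6, 118 and 70.1 in their controls. Knockouts and controls overlapped in all 4 comparisons, and this summed ratio was not tested.

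**Figure D3:**
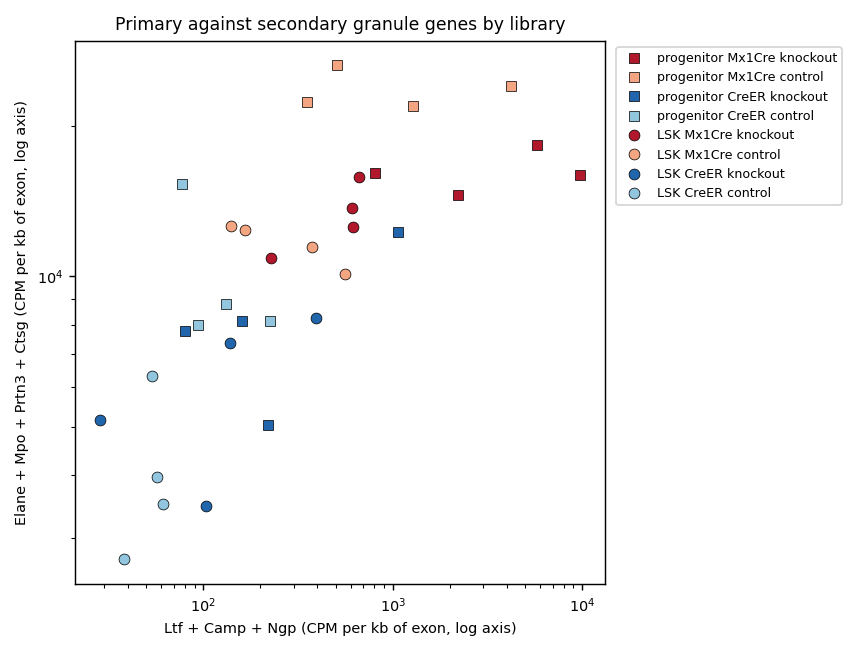
Each point is 1 of the 32 libraries, with the summed level of Ltf, Camp and Ngp along the bottom and of Elane, Mpo, Prtn3 and Ctsg up the side, both in CPM per kb of exon on log axes. The primary sum spans 2725 to 26391 and the secondary sum 28.3 to 9816, and progenitor Mx1Cre knockouts 3 and 4 lie farthest to the right.

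Within groups the members moved in 2 blocks. After removing group means, log2 CPM of the 3 secondary genes correlated with each other at r = 0.96 to 0.99 over the 32 libraries, and with S100a9 at 0.93 to 0.95. Elane correlated with Prtn3 at 0.93 and with Ctsg at 0.94, while Mpo followed Prtn3 and Ctsg less closely, at 0.78 each. Between the primary and secondary genes r ran from 0.12 (Mpo with Ltf) to 0.41 (Prtn3 and Ctsg with Camp), and between the primary genes and S100a8 up to 0.57 (Ctsg). With group means left in, the primary and secondary genes correlated at 0.64 (Elane with Ngp) to 0.81 (Prtn3 with Camp). The libraries share mice and differ in depth, and these values are descriptions. Over the 8 groups, the highest library of a group exceeded the lowest by 1.98 times (LSK CreER controls) to 13.8 times (progenitor Mx1Cre knockouts) for Ltf, and by 1.25 to 2.23 times for Mpo. In LSK CreER controls Mpo spread more than Ltf. Genes outside the members were compared over the 32 libraries with group means left in, so differences between groups enter these r values. Those whose log2 CPM followed the mean of the 4 primary genes, each scaled to the same spread, most closely were Cldn15, Gstm1, Ly6c2, Clec12a and Cst7 (r = 0.97 to 0.99). Those that followed Ltf, Camp and Ngp were Lcn2, Cd177, Ifitm6, Itgb2l and Mapk13 (r = 0.96 to 0.98).

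Values of the calgranulin and secondary genes were then set against the sex of the mouse. This comparison was added after the values were seen. Among progenitor Mx1Cre libraries, Ltf had 3575 and 1934 CPM in male knockouts, against 890 and 259 CPM in female knockouts, and 675 and 2127 CPM in male controls, against 202 and 173 CPM in female controls. Progenitor CreER knockout 3, the male of its group, had 297 CPM of Ltf, against 85.7, 32.4 and 49.6 CPM in the females. The male CreER control had 52.1 CPM, against 49.5, 98.7 and 30.8 CPM in the females, so in that group the sexes overlapped. With sex as a term beside the 4 groups, male over female, the log2 difference was 1.54 ± 0.33 for S100a8, 2.00 ± 0.36 for S100a9, 2.14 ± 0.45 for Ltf, 2.26 ± 0.40 for Camp and 2.21 ± 0.45 for Ngp. By edgeR none of the 10 passed (adjusted p = 0.0553 to 0.105 for these 5, all with an unadjusted p under 0.05, background 0.0584% of genes called higher). DESeq2 called all 5 (adjusted p = 6.23e-06 to 0.00178, background 0.891%), and so did limma-voom (0.0271 to 0.0425, background 0.387%). The primary genes and Ms4a3 differed by 0.08 to 0.24 with SE of 0.17 to 0.23.

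In LSK cells, without the 2 libraries whose sex-linked genes went against their labels, the same 5 genes were higher in males by 0.78 to 1.19 with SE of 0.25 to 0.37. By edgeR none passed (adjusted p = 0.475 to 0.622, all 5 with an unadjusted p under 0.05, background 0.0344% called higher), and DESeq2 and limma-voom called none. With all 16 libraries the differences were 0.27 to 0.67 as labelled and 1.07 to 1.39 with the 2 exchanged. The secondary sum of LSK CreER knockout 2 was 392 CPM per kb and that of knockout 3 was 28.3, whereas the progenitor libraries labelled as the same mice had 80.5 (mouse 2) and 1063 (mouse 3).

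**Figure D4:**
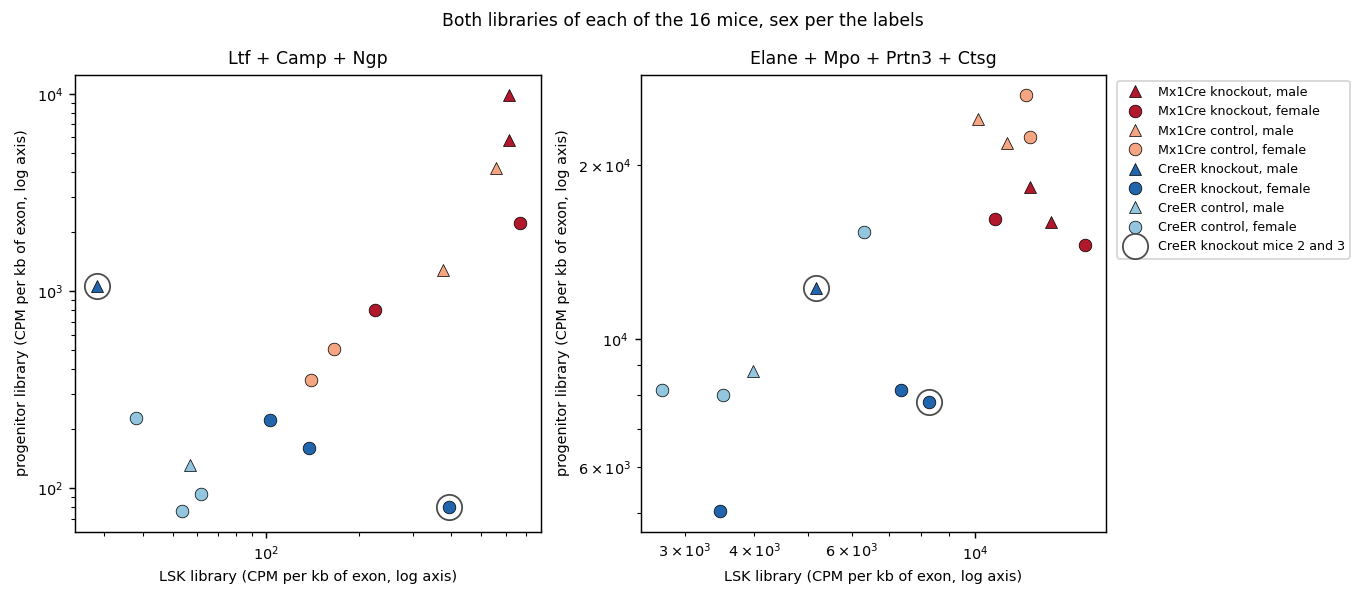
Each point is 1 of the 16 mice, with its LSK library along the bottom and its progenitor library up the side (CPM per kb of exon, log axes), for the summed secondary genes (left) and primary genes (right). Triangles are males and circles females per the labels, and rings mark CreER knockout mice 2 and 3, which lie apart from the other 14 in the left panel.

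The wider granule programme was read from lists of other genes of the path. Of 6 genes that process or pack primary granule enzymes, Prss57, a granule serine protease, was higher in LSK knockouts (log2 fold change 0.64 ± 0.15, adjusted p = 0.00335). There 13.5% of all genes were called higher. In progenitor knockouts, where 5.51% of all genes were called lower, 2 of the 6 were lower. These were Ctsc, the dipeptidyl peptidase that activates the granule proteases (-0.56 ± 0.11, 0.00404), and Srgn, the proteoglycan core on which they are stored (-0.65 ± 0.13, 0.00511). For Ctsc the effect itself was lower in progenitor than in LSK cells (-0.60 ± 0.13, 0.0112). Of 12 other secondary and tertiary granule genes tested, 3 were higher in LSK knockouts, beside 13.5% of all genes higher and 14.3% lower, namely Pglyrp1, a peptidoglycan-binding protein (1.27 ± 0.18, 6.43e-05), Lcn2, lipocalin 2 (1.46 ± 0.38, 0.0092), and Hp, haptoglobin (0.79 ± 0.23, 0.0156). Padi4, which modifies histones in neutrophil trap formation, was lower (-0.58 ± 0.10, 0.000554). In progenitor knockouts none of the 12 was called, and their median log2 fold change was 0.22.

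Of 10 transcription factors of the granulocyte and monocyte branches, 5 were higher in LSK knockouts (13.5% of all genes were higher): Cebpe (0.77 ± 0.20, adjusted p = 0.00801), Cebpd (0.59 ± 0.12, 0.00132), Gfi1, a repressor needed for neutrophil formation (0.57 ± 0.14, 0.00511), Spi1, which encodes PU.1 (0.27 ± 0.07, 0.0114), and Cebpa (0.21 ± 0.07, 0.038). Runx1 (-0.52 ± 0.07, 6.36e-05) and Klf4 (-0.71 ± 0.26, 0.0497) were lower, beside 14.3% of all genes. Klf4 averaged 8.48 CPM in LSK Mx1Cre knockouts against 25.2 CPM in their controls, but 6.66 CPM against 5.98 CPM with CreER. In progenitor knockouts none of the 10 was higher, and the monocyte factors Irf8 (-1.45 ± 0.17, 4.35e-05) and Klf4 (-1.66 ± 0.26, 0.000631) were lower together with Runx1 (-0.48 ± 0.14, 0.0402). There 5.51% of all genes were called lower. The effect on Irf8 was lower in progenitor than in LSK cells (-1.15 ± 0.22, 0.00348). In LSK cells Irf8 averaged 260 CPM in Mx1Cre knockouts against 456 CPM in their controls, but 180 CPM against 153 CPM with CreER. Cebpe averaged 0.41 ± 0.22 in progenitor knockouts (0.33).

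Of 7 receptors, Fcgr3 (0.64 ± 0.18, adjusted p = 0.0119) and Csf2rb, the shared chain of the GM-CSF receptor (0.32 ± 0.10, 0.0291), were higher in LSK knockouts. Over all genes 13.5% were called higher there and 14.3% lower. In progenitor knockouts Csf1r, the receptor of the monocyte growth factor M-CSF, was lower (-1.03 ± 0.18, 0.00179). Of 8 monocyte markers, a list that also holds Csf1r, 6 were lower in progenitor knockouts, beside 5.51% of all genes. Among them were Ccr2 (-1.35 ± 0.13, 1.09e-05) and Ms4a6c (-1.01 ± 0.14, 0.000248). The 8 markers summed to 1390 to 1975 CPM in progenitor Mx1Cre knockouts against 3200 to 4121 CPM in controls. Over both lines of LSK knockouts F13a1 was higher (0.69 ± 0.18, 0.00845) and Fn1 lower (-1.07 ± 0.30, 0.0137). Fn1 had a log2 fold change of -2.94 with Mx1Cre and 0.79 with CreER, a called difference (-3.73 ± 0.59, 0.00116), and F13a1 had 0.20 with Mx1Cre and 1.19 with CreER, a difference that was not called (-0.99 ± 0.36, 0.115).

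Of 8 late neutrophil markers, Wfdc21 was higher in LSK knockouts (1.43 ± 0.37, adjusted p = 0.0075) and Slpi lower in progenitor knockouts (-0.99 ± 0.25, 0.0215). Over all genes 13.5% were called higher in LSK knockouts and 5.51% lower in progenitor knockouts. The 8 late neutrophil markers summed to 278, 152, 847 and 614 CPM in progenitor Mx1Cre knockouts, against 270, 150, 389 and 1261 CPM in their controls. Control 4 was highest in this sum, whereas knockout 3 was highest in Ltf, Camp and Ngp. Ly6g, the surface marker of mature mouse neutrophils, had 1.73 to 41.1 CPM in these knockouts, against 3.23 to 60.2 CPM in the controls. The part of late neutrophil transcripts in the spread of the secondary genes was not tested.

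Markers of other lineages moved in LSK knockouts as well. Over both lines 5 of 6 megakaryocyte markers, 5 of 7 erythroid markers tested and 5 of 8 stem cell and sort markers were lower, and 1 erythroid marker was higher, beside 14.3% of all genes lower and 13.5% higher. With Mx1Cre alone 5 markers of each list were lower and 1 stem cell and sort marker higher, beside 15.9% of all genes lower and 15.2% higher. With CreER alone 2 megakaryocyte, 0 erythroid and 0 stem cell and sort markers were lower, beside 1.59% of all genes. Genes with a called difference between the lines included the erythroid genes Gata1, Klf1, Epor and Car1 (-1.77 to -3.28, adjusted p = 0.00179 to 0.0334) and the megakaryocyte genes Pf4 (-1.73, 0.0474) and Gp1bb (-1.86, 0.0301). Of 6 markers of granulocyte-monocyte progenitors, Igsf6 (0.73 ± 0.16, adjusted p = 0.00249) and Clec12a (0.49 ± 0.17, 0.0436) were higher in LSK knockouts, while Gstm1 (-0.66 ± 0.16, 0.0191) and Plac8 (-0.71 ± 0.19, 0.0271) were lower in progenitor knockouts. Over all genes 13.5% were called higher in LSK knockouts and 5.51% lower in progenitor knockouts. The eosinophil granule genes went different ways in the lines: they summed to 18.2 to 50.5 CPM in LSK Mx1Cre knockouts against 70.7 to 297 CPM in controls, and to 20.7 to 141 CPM in LSK CreER knockouts against 5.89 to 49.3 CPM in controls. Of the B cell markers Cd79b was lower in both populations, and none of the T and NK cell markers tested was called over both lines. The part of these cells in the granule gene changes was not tested.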

How the data were processed

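RNA of 32 libraries (50 ng each, paired-end 80 bp reads, per the labels' protocols) was analysed from the deposited counts, which the authors made with featureCounts on mm10, per the submitters' processing notes. Its version, the aligner, the annotation and how strand was handled: not given in the sources used here. Counts entered edgeR 4.0.16 in R 4.3.3 (TMM scaling, filterByExpr with a minimum count of 10 and total of 15, quasi-likelihood test, Benjamini-Hochberg adjustment, threshold 0.05). The 16 libraries of a population were fitted together with 4 groups, and comparisons across populations used all 32. SE is the log2 fold change divided by the root of F. CPM used TMM over 32 libraries. The procedure was tested on simulated data. Alternatives included DESeq2 1.42.0, limma-voom (limma 3.58.1), other filters and scaling, sex, replicate number or mouse as terms, and leaving out each library. Same-mouse progenitor and LSK libraries, paired by the labels' mouse number, deviated together (median r = 0.248, 14 of 16 pairs over 0.1). Members and lists were chosen with earlier results of these data known. Named genes were all members, list genes that passed, up to 4 markers a list by lowest p, and the 5 most similar genes a pattern. Floors and SE do not cover PCR duplicates. Gene symbols and promoters came from RefSeq, which named 25275 of 27179 genes.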

Additional observations from a re-analysis of the deposited data

Results flagged for a closer look

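Of 80 sets of 4 libraries (10 genes in 8 groups), 10 held 1 library whose gap to the nearest other exceeded Dixon's 95% critical value. Its rate of about 1 in 20 by chance holds for independent, normally distributed values. CPM is skewed and these genes moved together within groups, so 10 of 80 cannot be set against that rate. Progenitor CreER control 3 stood above its group for 3 genes: Elane at 3386 CPM (others 1533 to 1817), Mpo at 16303 CPM (8635 to 9658) and Ms4a3 at 489.2 CPM (261.9 to 294.2). Progenitor CreER knockout 3, the male of its group, stood above it for S100a9 at 793.9 CPM (157.9 to 261), Camp at 201 CPM (12.25 to 37.88) and Ngp at 718.7 CPM (55.97 to 146.4). LSK Mx1Cre knockout 2 stood below its group for S100a9 at 292 CPM (666.3 to 720.3) and Camp at 51.76 CPM (169.5 to 175.4). Unlike the other libraries of its group, it had no negative trend of log2 CPM with gene length (0.0215 per doubling). Prtn3 was lowest in LSK Mx1Cre control 4 at 2415 CPM (2764 to 2810), and Ms4a3 highest in progenitor Mx1Cre control 1 at 976.8 CPM (600.8 to 656.7).

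With the mouse as a block, the knockout effect differed between populations (progenitor minus LSK, log2) for Mpo at -0.64, Prtn3 at -0.90, Ctsg at -0.70 and Ms4a3 at -0.90. In that fit 2.75% of all genes were called lower. Without the block, no member passed. The block rests on the labelled mouse numbers, including those of LSK CreER knockouts 2 and 3, whose sex-linked genes went against their labels.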

How the results depend on the processing

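The 39 called member results were recomputed 1193 times: 1137 kept direction and call, 56 kept direction and lost their call, and 0 reversed. Comparisons among controls (progenitor over LSK, and Mx1Cre over CreER in each population) gave 10 called results each, and the others were knockout effects. When 1 library was left out, Elane in progenitor Mx1Cre knockouts lost its call 13 times. In LSK knockouts over both lines Ngp lost it 12 times and Prtn3 9 times. In the comparisons among controls no member lost it more than 2 times. Calls gained by other members show in the counts below. The cause of the changes was not tested. Called members in LSK knockouts over both lines (5) numbered 3 with limma-voom, 4 without CreER knockouts 2 and 3, with the replicate number as a block or with the length trend removed, 6 with DESeq2, with no filter or with sex as a covariate, and 7 with sex as a covariate and the 2 exchanged. In CreER alone (1) they numbered 3 with DESeq2, 0 with limma-voom, 2 with no filter, 0 without CreER knockouts 2 and 3, and 2 once the trend with gene length was removed. In Mx1Cre alone (1) they numbered 4 with only the groups compared, 2 without those libraries and 3 with sex as a covariate and the 2 exchanged. In progenitor knockouts over both lines (1) they numbered 3 with sex as a covariate and 2 with the replicate number as a block, and with Mx1Cre alone (1) 0 with a filter of 1 CPM. Males over females in progenitors (0) gave 5 with limma-voom and with DESeq2. Over all genes 8 to 155 were called there across the settings, against 11 in the main fit. The effect difference between populations (0) gave 2 with DESeq2, 1 with the length trend removed, 4 with the mouse as a block and 5 with the exchange as well. Over all genes 148 to 877 were called for that difference, against 364 in the main fit. Progenitor over LSK (10) gave 7 with limma-voom, and Mx1Cre over CreER progenitor controls (10) gave 9 with the replicate number as a block. Counts over all genes moved too, from 3171 to 4324 in LSK knockouts over both lines (main fit 3927). They were 33 to 889 in CreER alone (445) and 4221 to 4826 in Mx1Cre alone (4378). Progenitor knockouts gave 933 to 1490 over both lines (1067) and 344 to 1264 in Mx1Cre alone (833). Progenitor over LSK gave 4331 to 5697 (5006) and progenitor controls 2297 to 4065 (3458). Leaving out 1 library gave ranges of 3 to 8 (LSK, both lines), 0 to 3 (LSK CreER), 1 to 3 (LSK Mx1Cre), 1 to 5 (progenitor, both lines), 0 to 1 (progenitor Mx1Cre), 0 to 5 (males, progenitor), 0 to 1 (males, LSK), 6 to 10 (progenitor over LSK), 9 to 10 (progenitor controls) and 0 to 3 (effect difference). Over all genes they were, in the same order, 3113 to 4897, 159 to 714, 3157 to 5674, 775 to 1794 and 553 to 1541. The rest were 6 to 91, 10 to 34, 4443 to 5309, 2316 to 3753 and 186 to 640. Replicate numbers did not pair libraries within a population (median r = 0.031 in LSK and 0.059 in progenitor cells). The sex comparison, and the exchange of LSK CreER knockouts 2 and 3, were chosen after seeing the data.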
